A study of Mus musculus with 12 samples.

Results

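The genes described here were grouped as connexins of the junction between the mouse oocyte and its cumulus cells, with a related pannexin. They are the connexins Gja4, Gja1, Gja3, Gjc1, Gjb2 and Gjb5 and the pannexin Panx1, 7 of the 24562 genes counted. The choice was by name, with earlier results of these data known. Whether all 7 form channels at this contact was not tested. RNA-Seq covered 12 pools of germinal vesicle oocytes from CD-1 mice that were given no gonadotropins. There were n = 3 pools at postnatal day (PND) 13, 3 at PND 40, and 3 each from PND 16 mice of low and of high body weight, called PND 16 small and PND 16 large. Each pool held 18 to 45 oocytes. The study treated PND 16 large and PND 40 oocytes as meiotically competent and PND 13 and PND 16 small oocytes as non-competent. The comparisons ask how the junction genes differ between these cohorts. Competence was assigned by cohort, and it went with body weight within PND 16 and with age between PND 13 and PND 40. It cannot be told apart from them in these comparisons. All mice came from an outbred colony with no altered gene and no treatment, and milrinone, an inhibitor of the oocyte phosphodiesterase, was in the medium of every cohort. Cumulus cells were stripped from the oocytes by pipetting, and the study describes 3 mice per cohort as the source of its independent pools.

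Connexins assemble into hexameric hemichannels in the cell membrane, and hemichannels of neighbouring cells dock to form gap junctions that pass ions, nucleotides, amino acids and other small molecules. Cumulus cells reach the oocyte through fine projections that cross the zona pellucida, and the junctions at their tips bring the growing oocyte nutrients and the cyclic GMP that keeps it in meiotic arrest. Gja4 encodes the connexin that the oocyte contributes to this contact, and mice without it are infertile because follicles and oocytes do not complete their growth. Gja1 encodes the main connexin of granulosa and cumulus cells. Pannexins form related channels that open to the outside of the cell and do not usually dock.

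Of the 7 genes, 6 had enough reads to be tested, and Gjb5 did not. The total count per pool was 17671193 to 27418358. Values are given as CPM, the usual scaling of counts to a common library size, here with TMM factors, which makes a value a share of the pool's RNA and not an amount per oocyte. The 11 oocyte markers examined, such as Zp3, Gdf9 and Bmp15, were detected in every cohort and summed to 14862 to 19777 CPM. The 16 granulosa and cumulus cell markers were also detected in all cohorts, and their summed CPM ran from 217 to 610 at PND 13, from 270.5 to 694 in PND 16 small, from 313 to 331 in PND 16 large and from 299.97 to 325 at PND 40. None of the 16 was at 0 throughout a cohort. The markers Esr2 and Nr5a2 were at 74.1 and 87.8 CPM or more in every pool, a large part of the lower sums. The markers Inha, Amh and Foxl2 fell to 2.34, 0.389 and 0.391 CPM in their lowest pools. The 9 theca and stroma markers summed to 8.0 to 59.9 CPM, the 4 endothelial markers to 85.2 to 107 CPM, and the 5 blood and immune markers to 0.517 to 2.72 CPM. The hemoglobin genes Hba-a1 and Hbb-bs and the stromal factor Tcf21 had no count in any pool.

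Gja4 was by far the most abundant of these genes. Per kilobase of exon, which allows genes to be compared, its level averaged 287 CPM per kilobase over the 12 pools. Its lowest pool, at 212 CPM per kilobase, lay above the highest value of any other member, 12.5 CPM per kilobase for Gja1. Panx1 at 4.01, Gja1 at 3.93 and Gjb2 at 3.48 CPM per kilobase came next, and the ranges of these 3 genes over pools overlapped. Gja3 averaged 1.96, Gjc1 1.03 and Gjb5 0.137 CPM per kilobase. The order of Panx1 and Gja1 depended on the transcript length used, since with the longest annotated transcript Gja1 averaged 10.4 and Panx1 4.22 CPM per kilobase. Gja4 made up 90.8% ± 1.4 (SD, n = 3) of the summed level per kilobase of all 23 connexin and pannexin genes at PND 13, 92.2% ± 2.4 in PND 16 small, 93.2% ± 0.34 in PND 16 large and 93.3% ± 0.71 at PND 40. Among 13753 tested genes with a known length, its level exceeded that of 99.4% to 99.6% in each cohort.

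**Figure D1:**
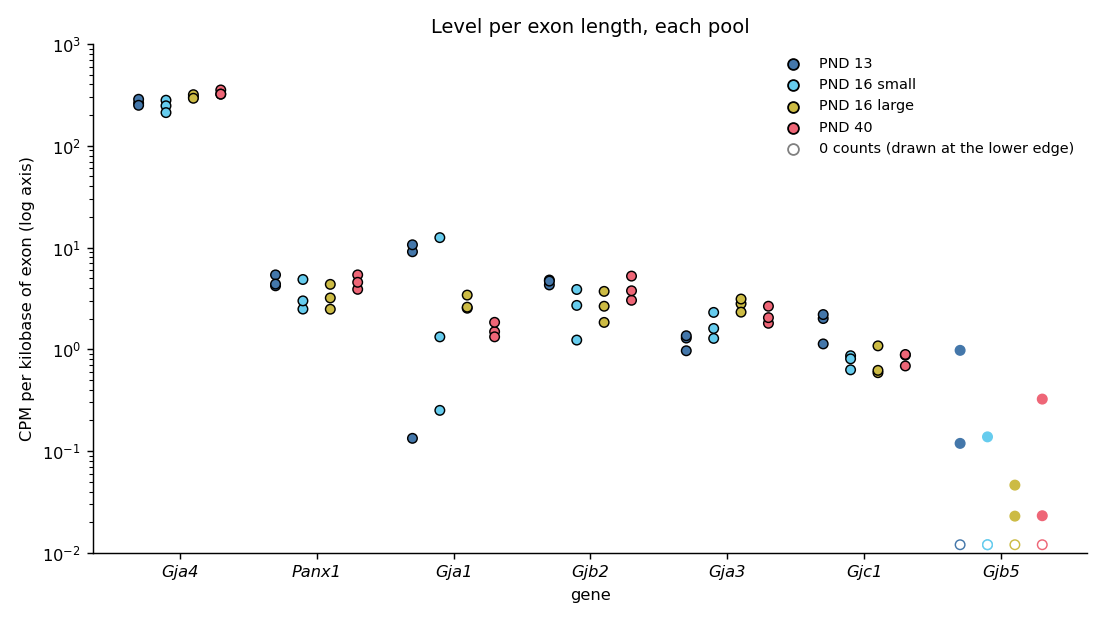
Level of each gene per kilobase of exon in each of the 12 pools, on a log axis, with 1 point per pool coloured by cohort and pools with 0 counts drawn as open circles at the lower edge. Gja4 lies between 212 and 353 CPM per kilobase in all pools, whereas Gja1 spreads from 0.133 to 12.5 CPM per kilobase.

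Gja4 lies on chr4:127311421-127314039 of GRCm38 (minus strand), next to Gjb5, which is 40769 bases away on the same strand. Its level was 442, 482 and 421 CPM in the 3 pools at PND 13, and 472, 416 and 357 CPM in PND 16 small. In PND 16 large it was 506, 535 and 493 CPM, and at PND 40 it was 596, 541 and 542 CPM. Every competent pool was thus higher than every non-competent pool, while PND 13 and PND 16 small overlapped. How many of all genes separate in this way was not counted. Such separation, here and for the genes below, is therefore a description of these pools only. The mean was 448 ± 31.2 CPM at PND 13, 415 ± 57.7 in PND 16 small, 512 ± 21.5 in PND 16 large and 559 ± 31.3 at PND 40 (SD, n = 3 each). By edgeR's quasi-likelihood test with adjustment over all 13943 genes tested, the level at PND 40 was higher than in PND 16 small, with a log2 fold change of 0.43 (SE 0.09, adjusted p = 0.00374). This is 1.35-fold, with a 95% interval of 1.17 to 1.55. PND 40 was higher than PND 13 by 0.32 on the log2 scale (SE 0.09, adjusted p = 0.0178), and PND 16 large was higher than PND 16 small by 0.30 (SE 0.09, adjusted p = 0.0493). Between competent and non-competent oocytes the difference was 0.31 (SE 0.07, adjusted p = 0.00583). All of these changes were below the 1.5-fold that the study required of a differentially expressed gene. Passing the adjusted p alone was common, at 30.2% of genes tested for PND 40 vs. PND 16 small, 33.1% for PND 40 vs. PND 13, 12.3% for PND 16 large vs. PND 16 small and 30.7% for competent vs. non-competent. PND 16 large vs. PND 13 gave 0.19 (adjusted p = 0.150), PND 40 vs. PND 16 large 0.13 (adjusted p = 0.457) and PND 16 small vs. PND 13 -0.11 (adjusted p = 0.560), none past the threshold. The difference between PND 40 and PND 16 small passed the adjusted p in every setting run, with 0.0231 as the highest value. The other 3 kept their direction but were less firm. Without the 3 pools of highest granulosa marker level (named below with Gja1), the log2 change was 0.22 (adjusted p = 0.331) for PND 40 vs. PND 13, 0.31 (adjusted p = 0.0805) for PND 16 large vs. PND 16 small and 0.30 (adjusted p = 0.0585) for competent vs. non-competent. For PND 40 vs. PND 13 the adjusted p was 0.0673 with scaling by total counts and 0.0537 without PND 13 replicate 1. This adjusted p was 0.0766 without PND 13 replicate 3 and 0.0770 without PND 40 replicate 1. For PND 16 large vs. PND 16 small the adjusted p rose above 0.05 without any 1 of these 6 pools except PND 16 small replicate 1, to at most 0.147. The adjusted p there was 0.0592 with total counts, 0.119 with only these 6 pools in the fit and 0.0662 with the granulosa marker sum as a covariate.

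Promoter sequences are shown for Gja4 and Gja3, the 2 members that were higher in competent oocytes by the adjusted p. They come from RefSeq on GRCm38.p6 and run from 250 bases before to 50 after a transcription start, 5′ to 3′, on the strand of the gene. Capitals mark E-boxes (CANNTG, searched on both strands), the letters bound by basic helix-loop-helix factors, a family to which the oocyte factor FIGLA belongs. Gja3 has 2 annotated starts, a distal and a proximal one.
Gja4 (chr4:127313990-127314289, minus strand): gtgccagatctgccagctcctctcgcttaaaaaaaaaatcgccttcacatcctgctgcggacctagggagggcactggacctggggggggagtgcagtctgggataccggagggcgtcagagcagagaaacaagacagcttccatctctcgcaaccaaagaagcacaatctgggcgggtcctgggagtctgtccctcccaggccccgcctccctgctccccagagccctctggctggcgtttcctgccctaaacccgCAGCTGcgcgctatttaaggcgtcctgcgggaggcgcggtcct
Gja3 distal start (chr14:57057981-57058280, minus strand): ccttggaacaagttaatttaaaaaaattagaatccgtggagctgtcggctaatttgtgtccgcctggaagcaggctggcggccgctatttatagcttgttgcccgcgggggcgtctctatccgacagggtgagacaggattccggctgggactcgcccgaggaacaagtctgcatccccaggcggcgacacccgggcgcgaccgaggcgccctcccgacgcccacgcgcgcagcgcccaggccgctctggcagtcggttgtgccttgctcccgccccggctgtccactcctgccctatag
Gja3 proximal start (chr14:57057674-57057973, minus strand): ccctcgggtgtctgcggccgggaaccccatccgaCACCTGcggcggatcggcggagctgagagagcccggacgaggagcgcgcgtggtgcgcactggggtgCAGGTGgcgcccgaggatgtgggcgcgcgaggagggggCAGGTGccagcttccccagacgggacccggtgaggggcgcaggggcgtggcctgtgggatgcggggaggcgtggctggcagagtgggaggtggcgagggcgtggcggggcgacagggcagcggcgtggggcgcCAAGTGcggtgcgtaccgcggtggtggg
The Gja4 window holds 1 E-box, the proximal Gja3 window 4 and the distal window 0. An E-box stands in 72.3% of the 32851 promoter windows of the same length, so its presence is a description only. The oocyte homeobox element TAATTG, found in 8.0% of all windows, is in none of these 3. The GC box GGGCGG, found in 35.7%, occurs once in Gja4 and once in the distal Gja3 window, and the latter also holds a TATAAA, found in 13.6%. In the distal Gja3 window both lie on the opposite strand, so the printed sequence shows them as ccgccc and tttata. Of the 7 members, 6 had a window in the table, and Gjc1 did not.

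Gja3, best known as a connexin of the lens fibre cell, was present at a low level that was higher in PND 16 large and PND 40 than at PND 13. It lies on chr14:57034460-57058100 (minus strand), 40499 bases from Gjb2. At PND 13 its level was 3.82, 4.02 and 2.86 CPM, and in PND 16 small it was 3.79, 6.82 and 4.74 CPM. In PND 16 large it reached 8.30, 6.86 and 9.23 CPM, and at PND 40 it was 7.85, 5.33 and 6.06 CPM. All pools of PND 16 large and PND 40 were above all pools of PND 13, and PND 16 small overlapped with PND 13 and PND 40. The log2 fold change was 1.19 (SE 0.26, adjusted p = 0.00569) for PND 16 large vs. PND 13, a 2.28-fold difference with a 95% interval of 1.54 to 3.36. It was 0.84 (SE 0.26, adjusted p = 0.0245) for PND 40 vs. PND 13, a 1.80-fold difference with an interval of 1.22 to 2.65. Competent oocytes exceeded non-competent ones by 0.74 (SE 0.21, adjusted p = 0.0162), or 1.68-fold, though the pools of these groups overlapped. Neither competent cohort passed the threshold against PND 16 small. PND 16 large vs. PND 16 small gave 0.67 (adjusted p = 0.108), PND 16 small vs. PND 13 gave 0.52 (adjusted p = 0.301), PND 40 vs. PND 16 small gave 0.32 (adjusted p = 0.371), and PND 40 vs. PND 16 large gave -0.34 (adjusted p = 0.477). These values rest on 70 to 232 counts per pool. Without PND 13 replicate 3 or PND 40 replicate 1 the adjusted p for PND 40 vs. PND 13 became 0.1004 or 0.108.

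Gjc1 moved the other way. Its connexin is found in early cardiac and vascular cells and in neurons, and the gene lies on chr11:102799579-102819700 (minus strand). Its level was 10.03, 10.97 and 5.65 CPM at PND 13, against 4.32, 4.03 and 3.14 CPM in PND 16 small. It was 2.94, 5.40 and 3.10 CPM in PND 16 large and 3.43, 4.38 and 4.44 CPM at PND 40. The 3 pools at PND 13 were above the 9 later pools, and the 3 later cohorts overlapped. Gjc1 fell by 1.22 on the log2 scale in PND 16 large vs. PND 13 (SE 0.30, adjusted p = 0.0112), to 0.430 of the PND 13 level with a 95% interval of 0.273 to 0.678. It fell by 1.12 in PND 40 vs. PND 13 (SE 0.30, adjusted p = 0.0125). The difference between PND 16 small and PND 13 was of the same size, -1.21 (SE 0.31), but its adjusted p was 0.0657 with edgeR and 0.00750 with DESeq2. Among the 3 later cohorts the log2 differences were -0.0068 for PND 16 large vs. PND 16 small, 0.09 for PND 40 vs. PND 16 small and 0.10 for PND 40 vs. PND 16 large. Their 95% intervals together ran from -0.67 to 0.75. Competent vs. non-competent oocytes gave -0.69 (SE 0.30, adjusted p = 0.0992). The call for PND 16 large vs. PND 13 was lost without PND 16 large replicate 1 (adjusted p = 0.0562), and that for PND 40 vs. PND 13 without PND 40 replicate 1 (adjusted p = 0.0578).

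**Figure D2:**
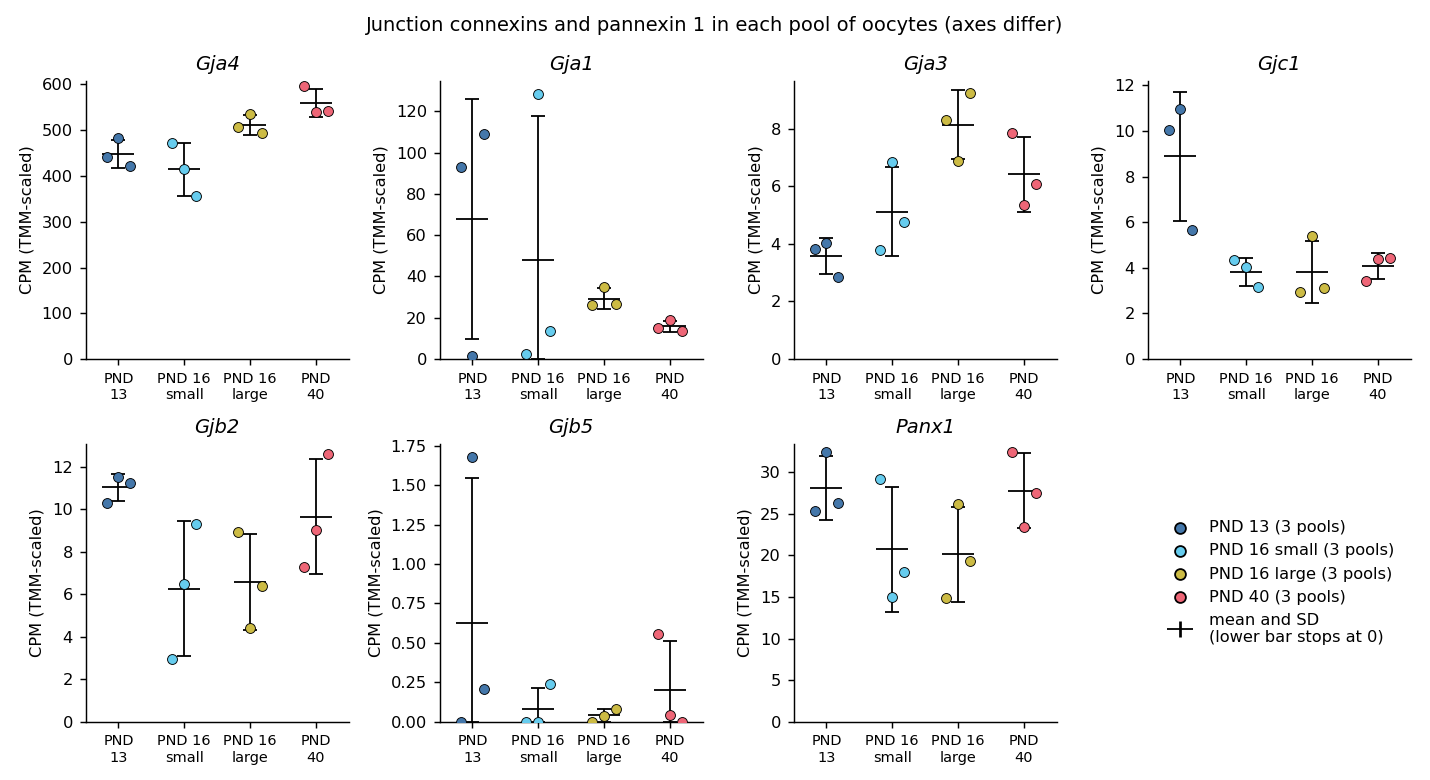
CPM of each gene in the 12 pools, with 1 point per pool and the mean and SD (n = 3) of each cohort in black, on linear axes that start at 0 and differ between genes. Gja4 and Gja3 are higher in PND 16 large and PND 40 than at PND 13, Gjc1 is highest at PND 13, and Gja1 spreads most within PND 13 and PND 16 small.

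Gja1, on chr10:56377330-56402513 (plus strand), varied more between pools of a cohort than between cohorts. At PND 13 its level was 93.1, 1.37 and 109 CPM, and in PND 16 small it was 2.57, 128 and 13.6 CPM. In PND 16 large it was 26.0, 34.9 and 26.6 CPM, and at PND 40 it was 15.3, 18.9 and 13.6 CPM. The highest pool was 93.8 times the lowest, compared with 1.67 times for Gja4. The pooled SD within cohorts was 113% of the mean for Gja1, 7.8% for Gja4 and 20.9% to 31.7% for Gja3, Gjc1, Gjb2 and Panx1. No comparison of Gja1 passed the threshold, and the 95% intervals were wide. For competent vs. non-competent oocytes the log2 difference was -1.36 (SE 0.93, adjusted p = 0.293) with an interval from -3.42 to 0.69. PND 40 vs. PND 13 gave -2.09 (SE 1.47, adjusted p = 0.316), PND 40 vs. PND 16 small -1.60 (adjusted p = 0.448), PND 16 large vs. PND 13 -1.22 (adjusted p = 0.577), PND 16 large vs. PND 16 small -0.73 (adjusted p = 0.786) and PND 16 small vs. PND 13 -0.49 (adjusted p = 0.887). The 2 competent cohorts were tighter and did not overlap, with all PND 40 pools below all PND 16 large pools. That difference was -0.87 (adjusted p = 0.792) with the spread estimated over all 12 pools and -0.88 (adjusted p = 0.00268) with the spread of those 6 pools alone.

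The level of Gja1 moved with that of granulosa cell markers. The 3 pools of highest Gja1 (PND 13 replicates 1 and 3 and PND 16 small replicate 2) had marker sums of 558 to 694 CPM, and the other 9 pools had 217 to 368 CPM. For 10 of the 16 markers the 3 highest pools were these same ones, and for 8 of the 16 the 2 lowest pools were those of Gja1, PND 13 replicate 2 and PND 16 small replicate 1. Inha, an inhibin subunit of granulosa cells, was at 97.0, 2.34 and 143 CPM at PND 13, at 4.42, 130 and 16.5 CPM in PND 16 small, at 20.2, 20.7 and 19.7 CPM in PND 16 large and at 11.4, 13.2 and 11.7 CPM at PND 40. Amh, the anti-Mullerian hormone, ranged from 0.389 to 33.5 CPM, and Foxl2, a granulosa cell transcription factor, from 0.391 to 20.0 CPM, with the same 3 pools highest. Cyp19a1, Nr5a2, Kitl, Esr2, Slc38a3 and Grem1 did not share these 3 pools. Over the list, 2 markers were called higher and 2 lower in PND 40 vs. PND 13, where 18.9% of all genes were called, and the median log2 change was -1.43 against 0.0044 for all genes. In a fit chosen after seeing the data, with the log2 marker sum as a covariate, Gja1 gave 1.81 (adjusted p = 0.000481) in competent vs. non-competent oocytes, the opposite direction. Esr2 and Nr5a2 had the highest median levels of the list, 128 and 95.2 CPM. Neither had the same 3 highest pools, and Esr2 was itself higher at PND 40 than at PND 13. Inha and Inhbb, which had the same 3, spread more between pools, from 2.34 to 143 and from 1.02 to 155 CPM. Esr2 ran from 74.1 to 148 CPM and Nr5a2 from 87.8 to 146 CPM. The marker sum was highest in the 3 pools of highest Gja1, all non-competent. The covariate fit therefore does not settle the direction of Gja1. A fit without the 3 pools of highest marker sum says nothing of the direction of Gja1, since these are also its 3 highest pools and all are non-competent. In pooled oocytes, fewer attached cells and less RNA per cell cannot be told apart, and the part of cumulus cell RNA in the Gja1 values was not tested. Gja3 kept its direction without these 3 pools, with 1.02 (adjusted p = 0.0785) for PND 16 large vs. PND 13 and 0.67 (adjusted p = 0.202) for PND 40 vs. PND 13, both no longer past the threshold. In the same fit it was called in PND 16 large vs. PND 16 small (0.94, adjusted p = 0.0342) and still called in competent vs. non-competent oocytes (0.80, adjusted p = 0.0251).

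**Figure D3:**
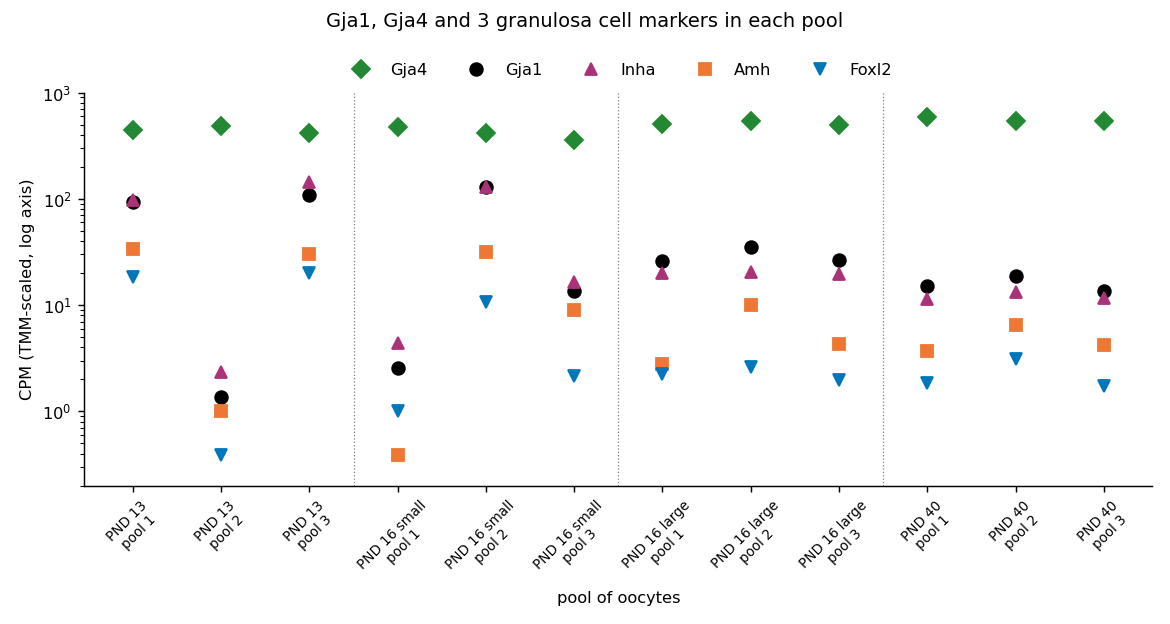
CPM of Gja4, Gja1 and the granulosa cell markers Inha, Amh and Foxl2 in each of the 12 pools, on a log axis, with cohorts separated by dotted lines. Gja1 and the 3 markers are high in PND 13 replicates 1 and 3 and PND 16 small replicate 2 and low in PND 13 replicate 2 and PND 16 small replicate 1, while Gja4 stays between 357 and 596 CPM.

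Gjb2 and Panx1 were called in none of the 7 comparisons in the main edgeR fits of all 12 pools, and Gjb5 was not tested. Gjb2, a connexin of epithelia and of the cochlea on chr14:57098600-57104702 (minus strand), was at 10.3, 11.5 and 11.3 CPM at PND 13 and at 2.96, 6.49 and 9.31 CPM in PND 16 small. It was at 8.92, 4.42 and 6.37 CPM in PND 16 large and at 7.29, 9.04 and 12.6 CPM at PND 40. Both PND 16 cohorts lay below PND 13 in every pool, and PND 40 overlapped with all of them. The log2 difference was -0.82 for PND 16 small vs. PND 13 (adjusted p = 0.231) and -0.75 for PND 16 large vs. PND 13 (adjusted p = 0.143), with 95% intervals of -1.60 to -0.05 and -1.52 to 0.02. With only those 6 pools in the fit, PND 16 large vs. PND 13 was called (-0.75, adjusted p = 0.0481). Panx1, the widely expressed pannexin on chr9:15002128-15045478 (minus strand), was at 25.4, 32.5 and 26.4 CPM at PND 13 and at 29.2, 15.0 and 18.0 CPM in PND 16 small. It was at 14.9, 26.2 and 19.3 CPM in PND 16 large and at 32.5, 23.4 and 27.4 CPM at PND 40. Its cohorts overlapped in each of the 6 pairs, and its largest difference by size, for PND 16 large vs. PND 13, was -0.48 (adjusted p = 0.181) with an interval of -1.02 to 0.06. It was called there with the granulosa marker sum as a covariate (-0.64, adjusted p = 0.0393). Without PND 16 small replicate 1 it was called in PND 16 small vs. PND 13 (-0.77, adjusted p = 0.0404), as was PND 40 vs. PND 16 small (0.76, adjusted p = 0.0209). Gjb5, an epithelial connexin on chr4:127354809-127358181 (minus strand), had 0 counts in 5 of the 12 pools and was too low to test. It had 0, 43 and 5 counts at PND 13, 0, 0 and 4 in PND 16 small, 0, 1 and 2 in PND 16 large and 13, 1 and 0 at PND 40. In PND 16 large no pool exceeded the floor of 3 counts. Its neighbour Gja4 had 6016 to 14758 counts in the same pools.

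Of the 6 members tested, 2 were called in PND 16 large vs. PND 13, Gja3 higher and Gjc1 lower, where 13.3% of all genes met both criteria for a call, an adjusted p no higher than 0.05 and a 1.5-fold change or more. The same 2 were called in the same directions in PND 40 vs. PND 13, where 18.9% of genes were called. In competent vs. non-competent oocytes Gja3 was called, against 15.0% of genes. These comparisons share samples, so a gene called in several of them is not separate evidence. No member was called by the main edgeR fit in the other 4 comparisons. The share of genes called there was 0.373% for PND 16 small vs. PND 13 (52 genes, but 817 without PND 16 small replicate 1), 6.19% for PND 16 large vs. PND 16 small, 17.2% for PND 40 vs. PND 16 small and 3.66% for PND 40 vs. PND 16 large. At an unadjusted p under 0.05 the number of members in these 4 was 2, 2, 1 and 0, in the same order. DESeq2 called 1 member in PND 16 small vs. PND 13 and 0 in the other 3, and limma on the deposited log2 values called 0 in all 4. The median log2 change of the 6 members was -0.61 in PND 16 large vs. PND 13 and -0.10 in PND 40 vs. PND 13, against -0.04 and 0.0044 over all genes.

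**Figure D4:**
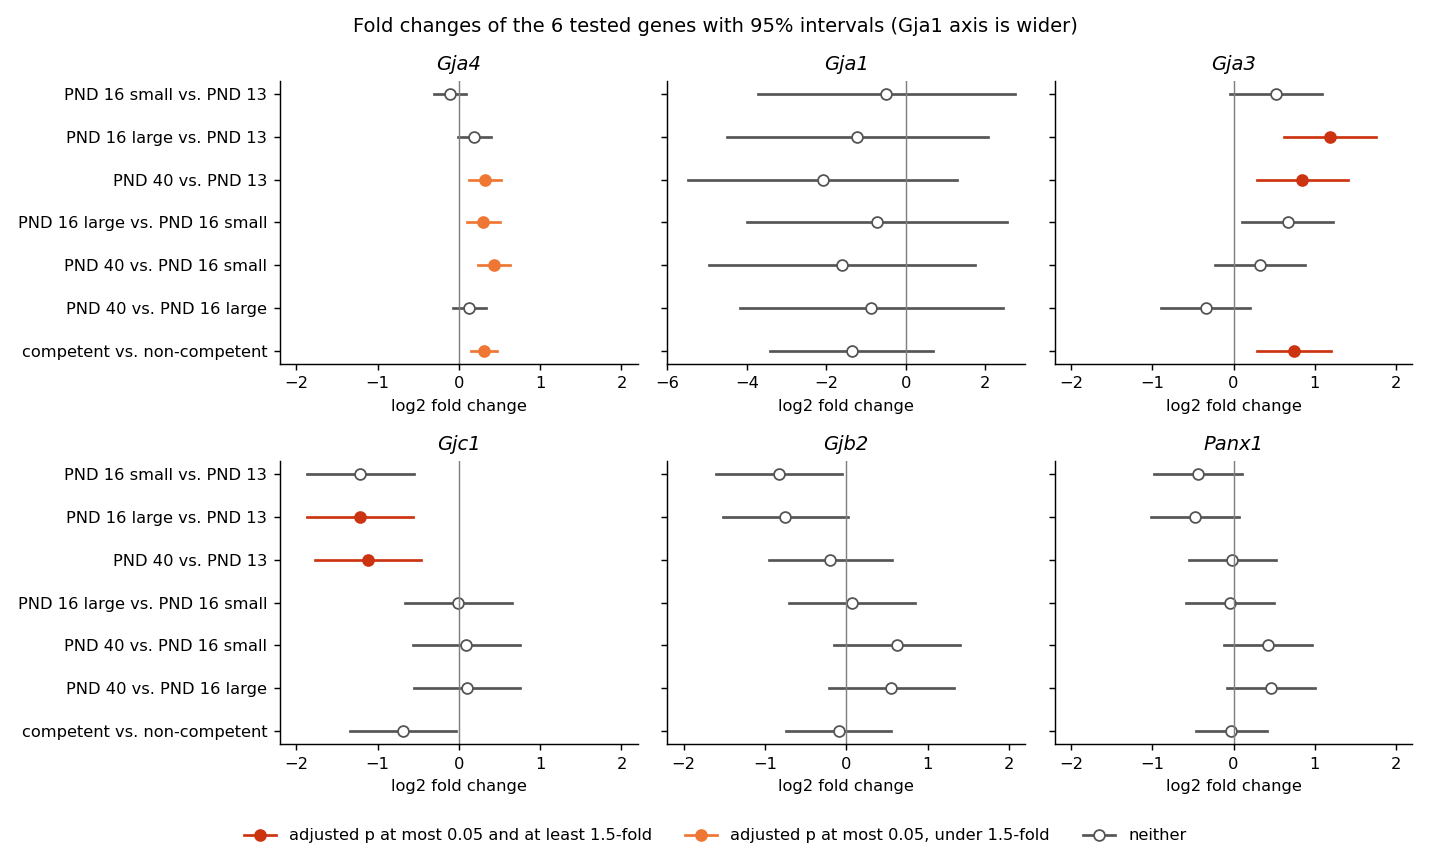
Log2 fold change (point) and 95% interval (line) of each tested gene in the 7 comparisons, with the first-named group over the second, and a wider axis for Gja1. Filled red points mark Gja3 and Gjc1 where they were called, filled orange points mark Gja4 where it passed the adjusted p below 1.5-fold, and the intervals of Gja1 span several log2 units.

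Most of the remaining connexins and pannexins were scarce. Of 16 such genes 7 were tested and 4 had no count in any pool. Gjb1, a connexin of liver and Schwann cells, had the highest level among them, with cohort means of 9.88 to 12.8 CPM. The members Gjb2, Gja3 and Gjc1 averaged 8.37, 5.81 and 5.15 CPM over all pools. Panx2, a pannexin known mainly from neurons, was the 1 gene of the 16 called in any comparison. In competent vs. non-competent oocytes that is 1 of the 7 tested, where 15.0% of all genes were called. It was at 1.91, 2.15 and 1.84 CPM at PND 13, at 0.923, 0.948 and 1.84 CPM in PND 16 small, at 4.29, 5.32 and 3.06 CPM in PND 16 large and at 6.17, 6.49 and 7.16 CPM at PND 40. All competent pools were above all non-competent pools, with a log2 difference of 1.75 (SE 0.28, adjusted p = 0.000412), or 3.37-fold with a 95% interval of 2.24 to 5.08. It was also called in PND 40 vs. PND 16 small (2.43, adjusted p = 0.000191) and in PND 16 large vs. PND 16 small (1.78, adjusted p = 0.00467). Panx1 gave -0.03 in competent vs. non-competent oocytes, with an interval of -0.46 to 0.41.

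Genes that work with these channels were counted in 3 lists. Of 23 genes for connexin partners and trafficking, 20 were tested, and in PND 40 vs. PND 13 4 were called higher and 1 lower, with a median log2 change of 0.05. The largest changes were in Cdh2, the neural cadherin, at 1.5 (SE 0.32, adjusted p = 0.00373), in Cnst, which carries connexins to the cell surface, at 1.03 (SE 0.12, adjusted p = 7.22e-05), in Ctnnd1, the cadherin-bound p120 catenin, at 0.84 (SE 0.11, adjusted p = 0.000124), and in Cdh3, the placental cadherin, at -0.70 (SE 0.09, adjusted p = 8.55e-05). The mean CPM of Cnst went from 283 ± 57.5 at PND 13 to 578 ± 21.1 at PND 40 (SD, n = 3). Nedd4, a ubiquitin ligase that acts on connexins, was lower in PND 16 large than at PND 13 (-1.12, adjusted p = 0.00544) and higher at PND 40 than in PND 16 large (1.11, adjusted p = 0.0176).

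Of 14 genes of the transzonal projections, all tested, 1 was higher and 3 were lower in PND 40 vs. PND 13, with a median of -0.04. Daam1, a formin that builds actin filaments, was higher by 0.76 (adjusted p = 0.000209). The actin genes Actg1 (-1.36, adjusted p = 0.0125) and Actb (-0.97, adjusted p = 6.74e-05) and the membrane linker Ezr (-0.96, adjusted p = 0.0388) were lower, where the 2 actins are uncertain because each has near-identical copies among which reads can be split. Of 14 genes of junction-borne cyclic nucleotide signalling, 0 were called higher and 3 lower in the same comparison by edgeR, with a median of -0.09. They were Impdh2, an enzyme of guanine nucleotide synthesis (-1.72, adjusted p = 0.00187), Gucy1a3, a subunit of soluble guanylate cyclase (-1.67, adjusted p = 0.0234), and Pde5a, a cyclic GMP phosphodiesterase (-1.10, adjusted p = 0.00683). The mean CPM of Impdh2 went from 5.33 ± 0.80 at PND 13 to 1.62 ± 0.54 at PND 40, and that of Pde5a from 6.27 ± 1.03 to 2.91 ± 0.87 (SD, n = 3). The mean CPM of Gucy1a3 went from 6.44 ± 4.40 to 2.02 ± 0.26, with a wide spread at PND 13. The counts of 5, 4 and 3 called genes in the 3 lists stand against 18.9% of all genes. Granulosa cell markers differed in both directions in the same comparison. Kitl, a granulosa cell ligand of the oocyte receptor KIT (-1.27, adjusted p = 0.0107), and Fshr, the receptor for follicle-stimulating hormone (-2.25, adjusted p = 0.00492), were lower, and Esr2, an estrogen receptor (0.75, adjusted p = 0.000671), and Grem1, a secreted BMP antagonist (adjusted p = 0.000826), were higher. Grem1 was at or under the floor of 3 counts in each PND 13 pool and averaged 2.61 ± 1.01 CPM at PND 40 (SD, n = 3), so no fold is given. Their part in the values of these lists was not tested.

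For each tested member, the genes whose log2 CPM followed it most closely over the 12 pools were sought among 11948 genes, as a description of pools that share cohort and library. For Gja4 they were Txn2, Sdf2 and Pias4, with Pearson's r of 0.989, 0.987 and 0.983. For Gja1 they were Arhgap31, Obsl1 and Scd2 (0.981, 0.980 and 0.979), for Gja3 Psmc1, Gtf2b and Riok1 (0.962, 0.957 and 0.956), and for Panx1 Faap100, Zfp593 and Ano6 (0.933, 0.925 and 0.900). The closest genes for Gjc1, Socs1, Gstt2 and Tsen54 (0.899, 0.884 and 0.864), and for Gjb2, Mif4gd, Rai1 and Fam83d (0.887, 0.880 and 0.880), followed them less closely. No gene stood in 2 of these lists.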

How the data were processed

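RNA-Seq was analysed in 12 pools of oocytes, 3 per cohort, grouped by the deposited sample labels. The authors deposited raw counts of reads per gene, without normalization, and log2 values, made by dividing the counts of a pool by its size factor, adding 1 and taking log2. The authors processed the reads on the Rosalind platform from rRNA-depleted directional libraries, and the submitters' processing notes name FastQC, STAR, HTSeq, DESeq2, HOMER and mm10, without versions. Genes were kept by filterByExpr (minimum count 10), which left 13943, and scaled by TMM with edgeR 4.0.16 in R 4.3.3. For the 6 pairwise comparisons 1 robust quasi-likelihood model of the 4 cohorts was fitted, and a model of 2 groups served for competent vs. non-competent. A call needed a Benjamini-Hochberg adjusted p no higher than 0.05 and a change of 1.5-fold or more, as in the study. The standard error was taken as the size of the log2 fold change over the root of F, and tables were made with pandas 2.3.3 in Python 3.11.15.

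The members and gene lists were chosen with earlier results of these data known. All members are named, together with other family genes called in any comparison, up to 4 called genes of a list and comparison with the largest change (from selected comparisons), and the 3 genes most like each member. The lists hold markers of granulosa and cumulus, theca and stroma, endothelial, blood and immune cells and oocytes, and genes of connexin partners and trafficking, transzonal projections and cyclic nucleotide signalling. Exon lengths (union of exons) and positions were taken from GENCODE M21 (GRCm38, the build that mm10 names). Among the deposited genes, 5 symbols occur more than once, none of them a member. Reads were counted without molecular identifiers, so intervals rest on the spread between pools, and pools that may share mice measure in part technical spread. Pools of a cohort differed by more than sampling noise, the chi-square per gene being 9.17 to 50.6. The fit was tested on simulated data. Alternatives were DESeq2 1.42.0, RLE factors or total counts in place of TMM, no filter, other samples in the fit, no fold-change criterion, leaving out each pool, the replicate number as a block and, for levels per kilobase, the longest transcript. Added after seeing the data were the granulosa marker sum as a covariate, the fit without the 3 pools of highest sum, and limma 3.58.1 on the deposited log2 values.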

Additional observations from a re-analysis of the deposited data

Results flagged for a closer look

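Both values that stood apart from the rest of their group belong to Gjb5, which was too low to test. Gjb5 was at 1.68 CPM in PND 13 replicate 2, where the nearest of the other non-competent pools was at 0.237 CPM. It was at 0.557 CPM in PND 40 replicate 1, where the nearest of the other competent pools was at 0.0796 CPM. These pools lay farther from their nearest neighbour than Dixon's 95% limit for 6 samples allows, among 14 groups of 6 examined, and chance alone marks about 1 group in 20. The cause was not tested.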

How the results depend on the processing

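With 3 pools per cohort, the depth limits Gjb5 and leaves Gja3 with 70 to 232 and Gjc1 with 53 to 281 counts per pool, and the spread between pools limits Gja1. The number of members called moved as follows. With the granulosa marker sum as a covariate it was 1 for PND 16 small vs. PND 13, 4 for PND 16 large vs. PND 13, 3 for PND 40 vs. PND 13, 1 each for PND 16 large vs. PND 16 small, PND 40 vs. PND 16 small and PND 40 vs. PND 16 large, and 2 for competent vs. non-competent. Without the 3 pools of highest marker sum it was 1 for PND 40 vs. PND 13 and 1 for PND 16 large vs. PND 16 small. With no fold-change criterion Gja4 joined, giving 1 for PND 16 large vs. PND 16 small, 1 for PND 40 vs. PND 16 small, 3 for PND 40 vs. PND 13 and 2 for competent vs. non-competent. DESeq2 gave 1 for PND 16 small vs. PND 13, and a fit of only the 6 pools compared gave 1 for PND 40 vs. PND 16 large and 3 for PND 16 large vs. PND 13. RLE factors, total counts and the lack of a filter moved none of these counts. Leaving out 1 pool gave 0 to 2 for PND 16 small vs. PND 13, 1 to 2 for PND 16 large vs. PND 13, 0 to 2 for PND 40 vs. PND 13, 0 to 1 for PND 16 large vs. PND 16 small and for PND 40 vs. PND 16 small, and 1 to 2 for competent vs. non-competent. PND 16 small replicate 1 (2 in place of 0 for PND 16 small vs. PND 13, and 1 in place of 0 for PND 40 vs. PND 16 small), PND 16 large replicate 1 (1 in place of 2 for PND 16 large vs. PND 13), PND 13 replicate 3 and PND 40 replicate 1 (1 and 0 in place of 2 for PND 40 vs. PND 13), PND 16 small replicate 2 (1 in place of 0 for PND 16 large vs. PND 16 small) and PND 16 small replicate 3 (2 in place of 1 for competent vs. non-competent) decided these. The cause was not tested.

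The log2 difference of Gja1 reversed with the covariate for PND 16 large vs. PND 13 (1.87), PND 40 vs. PND 13 (1.13), PND 16 large vs. PND 16 small (2.30), PND 40 vs. PND 16 small (1.57) and competent vs. non-competent (1.81). The covariate does not settle the direction, since the marker sum was highest in the 3 pools of highest Gja1, all of them non-competent. Without the 3 pools, which are also the 3 of highest Gja1, so that leaving them out favours a higher ratio over PND 13 and PND 16 small by construction, the sign was positive for these 5 (4.41, 3.54, 1.88, 1.00 and 1.99) and for PND 16 small vs. PND 13 (2.53). It reversed with limma on the deposited log2 values for PND 16 large vs. PND 13 (0.26), PND 16 large vs. PND 16 small (0.80) and competent vs. non-competent (0.088). Leaving out 1 pool gave Gja1 -3.11 to 0.070 for PND 16 small vs. PND 13, -1.28 to 1.88 for PND 16 large vs. PND 16 small and -2.16 to 1.00 for PND 40 vs. PND 16 small, with the positive values for the latter 2 without PND 16 small replicate 2. Other reversals were of uncalled differences near 0. Gjc1 gave 0.0050 with no filter and 0.035 without the 3 pools for PND 16 large vs. PND 16 small, and -0.011 with the covariate for PND 40 vs. PND 16 small. Gjb2 gave 0.036 without the 3 pools for competent vs. non-competent. Leaving out 1 pool gave Gjc1 -0.34 to 0.15 for PND 16 large vs. PND 16 small, -0.039 to 0.20 for PND 40 vs. PND 16 small and -0.063 to 0.42 for PND 40 vs. PND 16 large. It gave Gjb2 -0.26 to 0.48 for PND 16 large vs. PND 16 small and -0.27 to 0.023 for competent vs. non-competent. It gave Panx1 -0.14 to 0.10 for PND 40 vs. PND 13, -0.27 to 0.29 for PND 16 large vs. PND 16 small and -0.15 to 0.065 for competent vs. non-competent. In the comparisons where Gja4 passed the adjusted p, its direction was the same in all settings run.

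The correlation of the deviations of same-numbered pools was -0.44 to 0.08. Of the 6 pools of a comparison, 0 (PND 16 small vs. PND 13) to 4 (PND 40 vs. PND 16 large) were most like the pool of their own number. Whether same-numbered pools shared handling was not tested. With the replicate number as a block, the members called were 0 for PND 16 small vs. PND 13, 2 for PND 16 large vs. PND 13, 2 for PND 40 vs. PND 13 and 1 for competent vs. non-competent, as without it. Over all genes, calls for PND 16 small vs. PND 13 numbered 52, against 10 with the block, 371 with DESeq2, 187 with the covariate, 25 with total counts, 17 without the 3 pools and 2 with only those cohorts in the fit. Leaving out 1 pool gave 817 without PND 16 small replicate 1, 4 without PND 13 replicate 3, 5 without PND 16 small replicate 3 and 45 to 89 without each of the other 3. Calls for PND 40 vs. PND 16 large numbered 510, against 1081 with only those cohorts and 779 with DESeq2, and for PND 16 large vs. PND 16 small 863, against 475 with only those cohorts. Without the 3 pools, calls fell from 1858 to 1064 for PND 16 large vs. PND 13 and from 2637 to 1506 for PND 40 vs. PND 13.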
